A study of Mus musculus with 4 samples.

Results

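Brain RNA of tau-/- mice and of tau+/+ mice, both injected with pentylenetetrazole (PTZ), was compared gene by gene. The comparison covers all 230 genes of the deposited table, as log2 of the tau-/- PTZ value over the tau+/+ PTZ value. The values are FPKM, fragment counts adjusted for the length of the transcript and the size of the library. There is 1 library a side, so within these data no difference below has a replicate check or a p-value. The study also measured Arc, Fos, Junb and selected other transcripts by quantitative PCR after PTZ, and those values are not used here. Both PTZ libraries came from C57Bl/6 mice 6 weeks of age given 50 mg/kg PTZ into the abdomen. RNA was taken 1 h after injection, and the methods state that animals with like seizure scores were used. tau-/- mice carry GFP inserted into exon 1 of Mapt, the tau gene, so tau is missing from all tissues and GFP takes its place. The matching vehicle libraries, 1 per genotype, enter only as values set beside the PTZ values. The sources used here do not state how many mice contributed to each library. The labels name brain as the source but also speak of primary neurons, and the libraries are described here as brain. Mapt is not analysed here, so the genotypes rest on the labels. Genes that define neurons as a class are not analysed here either.

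The authors chose the 230 genes because their level differed between tau+/+ vehicle and tau+/+ PTZ while tau-/- mice showed no such response or a milder one. By the methods all 4 libraries thus entered the choice, which bears on the direction and size of the ratio after PTZ and also on the ratio after vehicle. All 175 genes chosen as higher after PTZ in tau+/+ were lower in tau-/- PTZ than in tau+/+ PTZ, and all 55 chosen as lower were higher. These directions are therefore no finding, and the sizes below describe how far apart the chosen genes ended. Lower by over 1.5-fold in tau-/- PTZ were 139 genes (60.4%), and 14 genes (6.09%) were higher by over 1.5-fold. Another 77 genes ended within 1.5-fold. Counted over the 175 genes chosen as higher, 79.4% were lower by over 1.5-fold and 22.3% by over 4-fold, and over the 55 chosen as lower, 25.5% were higher by over 1.5-fold. Lower by over 4-fold were 39 genes (17%), and 0 genes were higher by over 2-fold. The median log2 ratio was -0.97 over the 175 genes chosen as higher and 0.40 over the 55 chosen as lower. In the vehicle libraries 23 of the 230 genes (10%) were lower and 32 (13.9%) were higher in tau-/- by over 1.5-fold. These vehicle values are a description of chosen genes as well.

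PTZ blocks the chloride channel of GABA-A receptors and thereby drives neurons into synchronous firing and seizures. Calcium that enters firing neurons activates kinases, among them the MAP kinases ERK1 and ERK2, which act on transcription factors already present in the nucleus, such as CREB and SRF. These switch on immediate early genes within minutes, first transcription factors of the Fos, Egr and Nr4a families, then effectors at synapses and phosphatases that turn the kinases off again. CREB binds the cAMP response element (CRE), and SRF binds the CArG box. The choroid plexus, in contrast, is a non-neuronal epithelium in the brain ventricles that secretes cerebrospinal fluid.

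**Figure D1:**
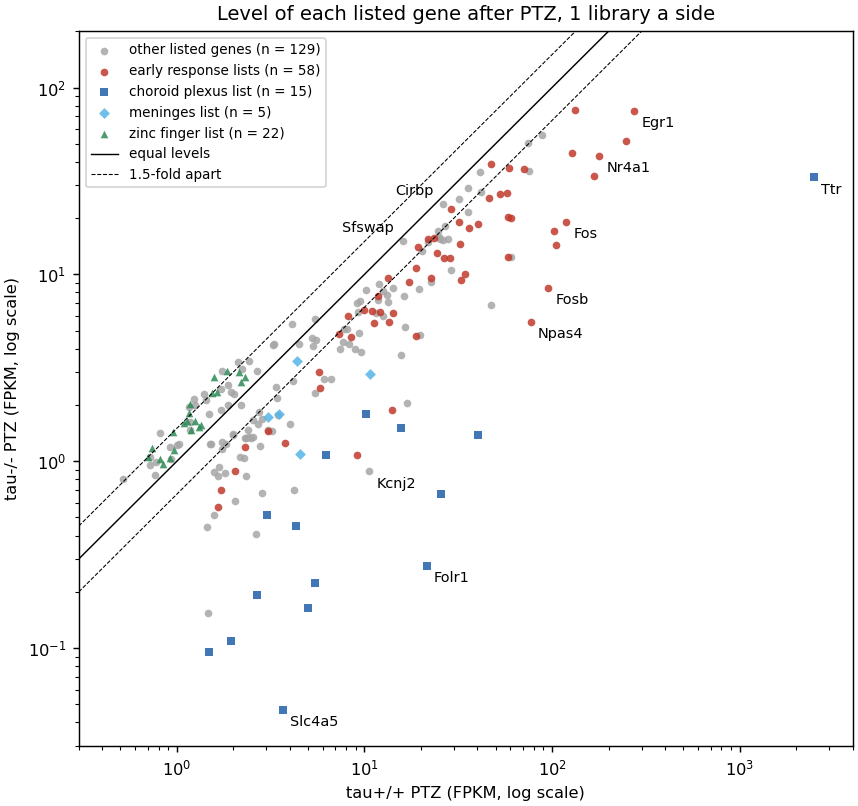
Level of each listed gene in the tau+/+ PTZ library (horizontal axis) and the tau-/- PTZ library (vertical axis), both in FPKM on log scales, 1 point per gene and 1 library a side, without Defb11, which is listed at 0. The solid line marks equal levels and the dashed lines a difference of 1.5-fold. The 10 points farthest below the line are choroid plexus genes, and the 22 zinc finger genes lie at low levels just above it.

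Promoters are shown for 5 early genes and 1 choroid plexus gene, all lower in tau-/- PTZ, because the 2 groups hold most of the genes furthest apart. Each sequence runs 5′ to 3′ on the gene's own strand from 250 bases before to 50 bases after the start site given by RefSeq on GRCm38.p6. Capitals mark each TGACG, the half-site of the CRE, on either strand (CGTCA where it lies on the other strand). The half-site is contained in the full CRE, TGACGTCA, which appears as 8 capitals. Fos lies at chr12:85473640-85473939 (plus strand), Npas4 at chr19:4989922-4990221 (minus strand) and Nr4a1 at chr15:101266596-101266895 (plus strand). Btg2 lies at chr1:134079106-134079405 (minus strand), Dusp1 at chr17:26508423-26508722 (minus strand) and Slc4a5 at chr6:83237125-83237424 (plus strand).
Fos: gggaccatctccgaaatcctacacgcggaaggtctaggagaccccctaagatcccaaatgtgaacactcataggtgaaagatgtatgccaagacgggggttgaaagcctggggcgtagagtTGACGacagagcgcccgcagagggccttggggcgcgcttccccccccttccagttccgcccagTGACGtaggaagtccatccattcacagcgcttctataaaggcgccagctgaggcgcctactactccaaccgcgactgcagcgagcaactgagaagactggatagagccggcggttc
Npas4: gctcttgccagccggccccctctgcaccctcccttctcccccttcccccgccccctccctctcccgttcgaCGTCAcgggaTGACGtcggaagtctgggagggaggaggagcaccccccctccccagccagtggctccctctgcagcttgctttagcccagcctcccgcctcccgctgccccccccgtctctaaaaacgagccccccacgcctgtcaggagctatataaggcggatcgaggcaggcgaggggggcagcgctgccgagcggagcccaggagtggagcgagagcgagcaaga
Nr4a1: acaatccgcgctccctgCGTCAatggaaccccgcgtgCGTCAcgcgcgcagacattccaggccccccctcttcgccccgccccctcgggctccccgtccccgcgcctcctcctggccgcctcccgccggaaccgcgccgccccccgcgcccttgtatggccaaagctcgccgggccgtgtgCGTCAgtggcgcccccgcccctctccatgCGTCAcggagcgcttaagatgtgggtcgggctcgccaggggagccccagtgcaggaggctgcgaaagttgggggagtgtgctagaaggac
Btg2: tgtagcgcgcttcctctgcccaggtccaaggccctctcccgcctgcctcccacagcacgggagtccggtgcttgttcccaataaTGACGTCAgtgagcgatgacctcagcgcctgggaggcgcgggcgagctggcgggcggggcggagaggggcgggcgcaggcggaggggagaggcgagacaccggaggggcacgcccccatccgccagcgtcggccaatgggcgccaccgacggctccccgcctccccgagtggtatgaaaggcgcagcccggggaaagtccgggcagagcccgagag
Dusp1: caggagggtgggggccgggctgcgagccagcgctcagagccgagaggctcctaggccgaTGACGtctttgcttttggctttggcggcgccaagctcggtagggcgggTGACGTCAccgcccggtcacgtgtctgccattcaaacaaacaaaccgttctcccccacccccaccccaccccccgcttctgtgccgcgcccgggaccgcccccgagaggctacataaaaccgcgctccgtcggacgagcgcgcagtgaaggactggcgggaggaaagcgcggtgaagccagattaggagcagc
Slc4a5: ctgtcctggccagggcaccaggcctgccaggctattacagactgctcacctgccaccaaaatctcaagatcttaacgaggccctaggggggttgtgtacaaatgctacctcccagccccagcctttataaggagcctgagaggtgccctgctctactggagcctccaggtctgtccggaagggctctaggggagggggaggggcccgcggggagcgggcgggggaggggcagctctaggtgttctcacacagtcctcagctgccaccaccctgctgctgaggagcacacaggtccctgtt

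Fos and Npas4 each hold 2 half-sites, Nr4a1 holds 4, and the full CRE is present in Btg2 and Dusp1, while the window of the choroid plexus gene Slc4a5 holds 0 half-sites. Across the early response lists described below, 33 of the 44 genes with a promoter sequence (75%) held a half-site. The share was 23.0% of 27025 mouse genes with promoters of the same length and 44.6% of the 175 listed genes with a sequence. Among the early transcription factors the share was 89.5% (17 of 19), among the choroid plexus genes 18.2% (2 of 11, Kcnj13 and 1500015O10Rik) and among the zinc finger genes 19.0% (4 of 21). The full CRE was found in 8 of the 44 early genes (18.2%), namely Maff, Dusp1, Errfi1, Plk2, Rcan1, Btg2, Ppp1r15a and Nfkbid, against 7.43% of the listed genes and 2.0% of all promoters. Among the early transcription factors it was found in 1 of 19 (5.26%). The CArG box was found in Egr2, Srf, Dusp5 and Zfp36, 9.09% of the early genes against 2.86% of the listed genes and 1.81% of all. The AP-1 site TGANTCA, bound by Fos and Jun dimers, was found in 6.82% of the early genes, 4.57% of the listed genes and 8.97% of all promoters. The Otx motif TAATCC was found in 1 of the 11 choroid plexus genes, Abca4, and in 8.14% of all promoters. Both strands were searched for each motif, and a gene with several promoter sequences counted as a match if any of them held it. Shares of all promoters are over the 27025 genes, and promoters on chromosome 18 were left out throughout. The early promoters were also richer in G and C, with a median of 64.3% against 60.7% over the listed genes and 52.8% over all promoters, and the part of base composition in these shares was not tested. A match describes letters in the window and is neither a site nor a cause.

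Genes of the early response made up 58 of the 230. They were grouped into 11 lists, and each of the 58 was at its highest of the 4 libraries in tau+/+ PTZ, as were 174 of the 175 genes chosen as higher. Of these genes 51 were lower in tau-/- PTZ by over 1.5-fold and 12 by over 4-fold, and 7 ended within 1.5-fold. All 58 were chosen as higher after PTZ, so this count and those of the lists below stand beside the 139 of 175 such genes (79.4%) past 1.5-fold and 39 of 175 (22.3%) past 4-fold. The share past 4-fold was close to that of all such genes. The median log2 ratio of the early genes was -1.11, against -0.97 over the 175, -0.86 over those in no list and -0.78 over all 230 genes, and it ranged from -3.78 in Npas4 to -0.26 in Bhlhe40. In the vehicle libraries the median of the same genes was 0.34, with 17 higher and 3 lower in tau-/- by over 1.5-fold, against 32 and 15 of the 175. tau-/- PTZ was the lowest of the 4 libraries for 5 of the 58, against 46 of the 175. Both the size of the gap and the place of tau-/- PTZ between the other libraries differed from gene to gene, as follows.

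Npas4, a neuron-specific transcription factor that responds to calcium entry, ended furthest apart among the early genes. It had 76.9 FPKM in tau+/+ and 5.58 FPKM in tau-/- after PTZ, against 3.21 and 3.57 FPKM after vehicle. Only tau+/+ PTZ stood high, 13.8-fold above tau-/- PTZ, and the latter lay closer to both vehicle libraries. The other 6 genes of its list of early transcription factors lay closer together, with log2 ratios from -0.93 in Id1, an inhibitor of bHLH factors, to -0.26 in Bhlhe40, a circadian repressor. Csrnp1, Klf2, Hes1 and Klf4 lay between them at -0.87, -0.63, -0.62 and -0.61.

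The AP-1 and related bZIP factors pair with each other to bind DNA, and all 9 were lower in tau-/- PTZ by over 1.5-fold, 4 of them by over 4-fold. Fosb (chromosome 7, 19302696 to 19310051 in GENCODE M21 on GRCm38) had 95.4 FPKM in tau+/+ and 8.45 FPKM in tau-/- after PTZ, against 3.63 and 5.57 FPKM after vehicle, a gap of 11.3-fold after PTZ. Fos had 119 FPKM in tau+/+ and 19.1 FPKM in tau-/- after PTZ, against 6.8 and 9.43 FPKM after vehicle, a gap of 6.25-fold. For both genes tau-/- PTZ was above both vehicle libraries and far below tau+/+ PTZ. Atf3, a stress-induced member, had 9.10 FPKM in tau+/+ PTZ and 1.08 FPKM in tau-/- PTZ, and was under 1 FPKM in both vehicle libraries. Junb had 248 FPKM in tau+/+ PTZ against 51.9 FPKM in tau-/- PTZ, with 29.8 and 40.3 FPKM in tau+/+ and tau-/- vehicle. Within the family the gap was narrower for Jun, at 71.0 against 36.6 FPKM after PTZ and 34.6 and 31.8 FPKM after vehicle. Its log2 ratio of -0.95 was next to that of Maff at -0.96, and Fosl2, Cebpb and Nfil3 lay at -1.22, -1.23 and -1.29.

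Among the Egr zinc finger factors, Egr2 and Egr4 ended furthest apart. Egr2, also known for its role in myelinating Schwann cells, had 14.0 FPKM in tau+/+ PTZ and 1.88 FPKM in tau-/- PTZ, with 0.913 and 1.72 FPKM in tau+/+ and tau-/- vehicle. Egr4 had 102 FPKM in tau+/+ PTZ and 17.0 FPKM in tau-/- PTZ, with 9.45 and 22.3 FPKM in tau+/+ and tau-/- vehicle. Both tau-/- libraries of Egr4 lay above tau+/+ vehicle and far below tau+/+ PTZ. Egr1, a marker of neuronal activity and the most abundant early gene in tau+/+ PTZ, had 274 FPKM in tau+/+ PTZ and 74.9 FPKM in tau-/- PTZ, a log2 ratio of -1.87. Egr3 was at -1.53. Srf, which acts upstream of the Egr genes, ended within 1.5-fold at 23.4 against 15.7 FPKM.

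The 3 Nr4a orphan nuclear receptors did not end alike. Nr4a1 had 178 FPKM in tau+/+ and 42.9 FPKM in tau-/- after PTZ, against 16.3 and 33.7 FPKM after vehicle, a gap of 4.15-fold after PTZ. Nr4a2 had 52.7 and 26.8 FPKM after PTZ and 21.9 and 26.2 FPKM after vehicle, in tau+/+ and tau-/- each time. Nr4a3 had 46.3 and 25.7 FPKM after PTZ and 14.5 and 23.9 FPKM after vehicle. For Nr4a2 and Nr4a3 the tau-/- levels after PTZ and after vehicle were nearly the same, and the log2 ratios after PTZ were -0.97 and -0.85.

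**Figure D2:**
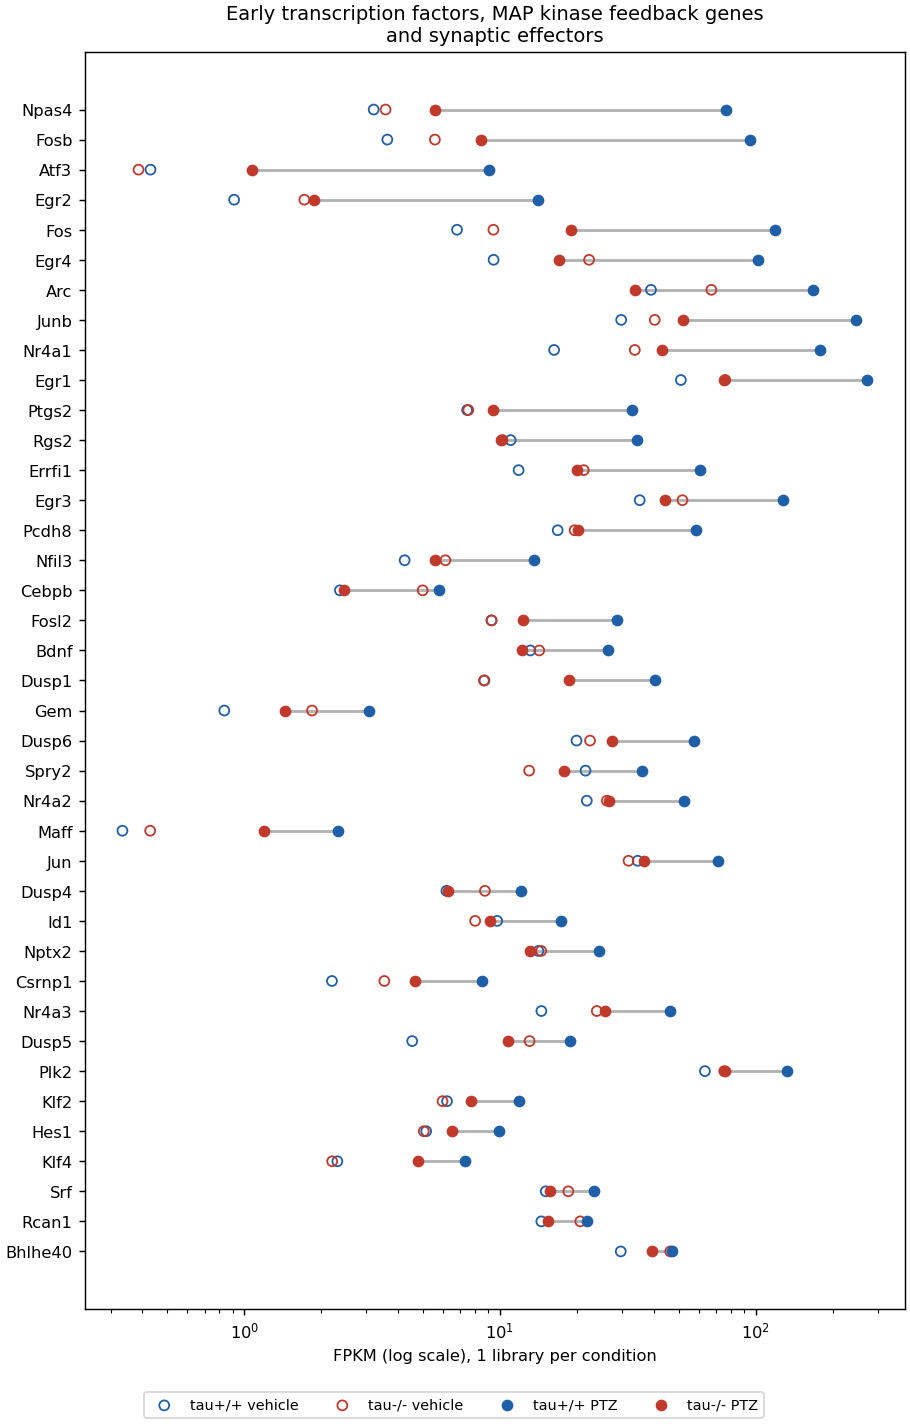
FPKM on a log scale (horizontal axis) of the early transcription factors, MAP kinase feedback genes and synaptic effectors (rows, ordered by log2 ratio after PTZ), with 1 library per condition. Filled points are PTZ libraries joined by a grey line, open points vehicle libraries, blue tau+/+ and red tau-/-. The grey line is longest for Npas4, from 5.58 to 76.9 FPKM, and shortest for Bhlhe40, from 39.2 to 47.0 FPKM.

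Genes that dampen MAP kinase signalling were lower in tau-/- PTZ by over 1.5-fold in 6 of 6 cases, 0 of them by over 4-fold, where 79.4% of all genes chosen as higher passed 1.5-fold. Errfi1, an inhibitor of the EGF receptor, had 60.4 FPKM in tau+/+ and 20.0 FPKM in tau-/- after PTZ, against 11.8 and 21.3 FPKM after vehicle. Its tau-/- level was nearly the same in both libraries and lay between those of tau+/+. The dual-specificity phosphatases, which remove phosphate from MAP kinases, were at log2 ratios of -1.11 for Dusp1, -1.07 for Dusp6, -0.95 for Dusp4 and -0.81 for Dusp5. Dusp1 had 40.2 FPKM in tau+/+ PTZ and 18.7 FPKM in tau-/- PTZ, against 8.70 and 8.66 FPKM in the vehicle libraries, so that tau-/- PTZ stood above both. Spry2, an inhibitor of receptor tyrosine kinase signalling, was at -1.02.

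Synaptic effectors were lower in tau-/- PTZ by over 1.5-fold in 8 of 9 cases, a share near the 79.4% of all genes chosen as higher. Arc, whose protein drives the uptake of AMPA receptors at active synapses, had 168 FPKM in tau+/+ and 33.6 FPKM in tau-/- after PTZ, against 39.0 and 67.2 FPKM after vehicle. tau-/- PTZ was the lowest of the 4 libraries for Arc, as it was for 3 other genes of this list. Ptgs2, the inducible cyclooxygenase, had 32.7 and 9.37 FPKM after PTZ in tau+/+ and tau-/-, and Rgs2, a brake on G protein signalling, had 34.4 and 10.1 FPKM. Pcdh8, a protocadherin, was at a log2 ratio of -1.53, Bdnf, a neurotrophin, at -1.12, the small GTPase Gem at -1.09 and Nptx2, a pentraxin of excitatory synapses, at -0.90. Plk2, a kinase that weakens overactive synapses, stayed high on both sides at 133 and 76.3 FPKM, and Rcan1, an inhibitor of calcineurin, ended within 1.5-fold at 21.9 and 15.5 FPKM.

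The remaining early lists were smaller. Btg2, which promotes the removal of poly(A) tails, had 105 FPKM in tau+/+ and 14.3 FPKM in tau-/- after PTZ, against 7.10 and 5.56 FPKM after vehicle, a gap of 7.34-fold. It stood apart from the other genes of RNA decay and translation control, the phosphatase subunit Ppp1r15a at -1.25 and the RNA-binding proteins Zfp36 and Zfp36l2 at -1.03 and -0.48. Of the growth arrest genes, Gadd45g was at -2.24, Gadd45b at -1.20 and Cdkn1a, the p21 inhibitor of cyclin-dependent kinases, at -0.78. The vascular and matrix genes spread from -2.0 in Adamts1, a secreted protease, to -0.45 in Col4a2, a basement membrane collagen. Cyr61, a matrix protein of this list, had 32.3 and 14.5 FPKM after PTZ in tau+/+ and tau-/-, and 2.0 and 2.6 FPKM after vehicle, so both PTZ libraries lay far above both vehicle libraries. The NF-kB regulators Nfkbiz and Nfkbid and the endotoxin receptor Cd14 were at -1.60, -1.54 and -1.21, all at under 4 FPKM in every library. The 3 genes placed in the glucocorticoid-responsive list were among the least separated, with Per1 at -0.75, Sgk1 at -0.68 and Ddit4 at -0.38. After vehicle all 3 were higher in tau-/- by over 1.5-fold, against 32 of the 175 genes chosen as higher.

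**Figure D3:**
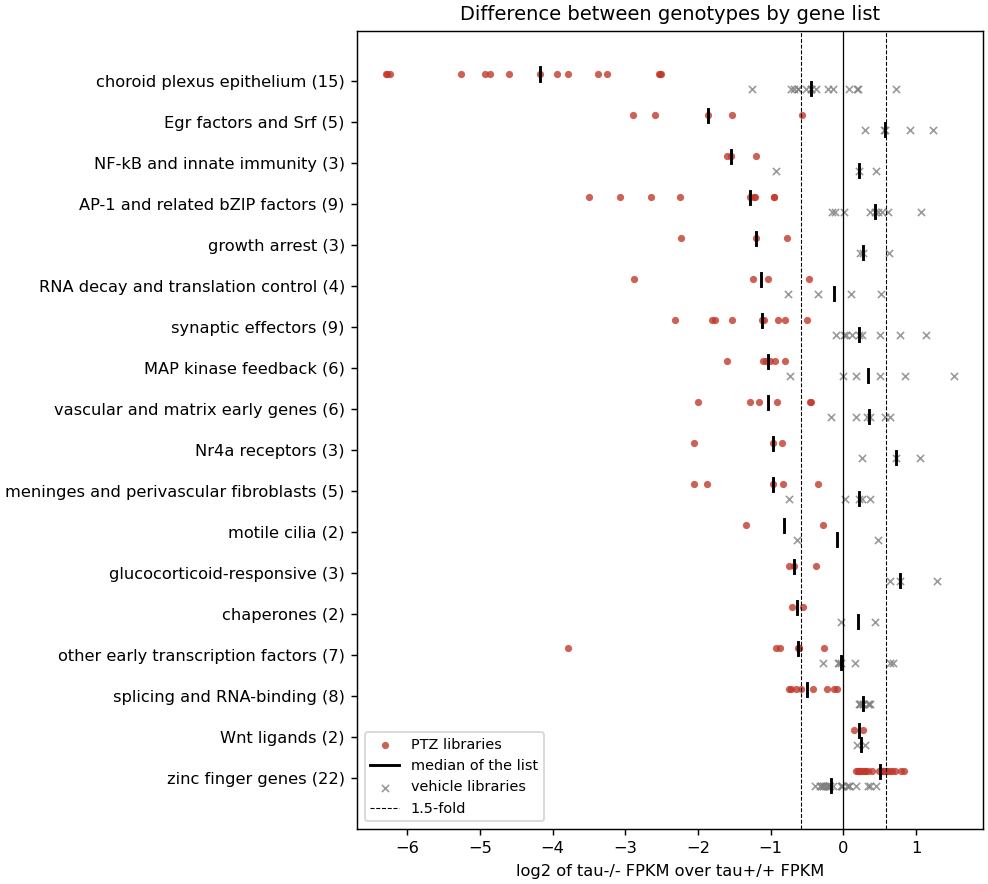
log2 of tau-/- FPKM over tau+/+ FPKM (horizontal axis) for every gene of the 18 lists (rows, with the number of genes), as red points for the PTZ libraries and grey crosses for the vehicle libraries. Black bars are list medians and dashed lines mark 1.5-fold. The median after PTZ is -4.17 for the choroid plexus list, the lowest, and 0.51 for the zinc finger list, the highest, while the vehicle medians lie between -0.44 and 0.78.

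The choroid plexus epithelium list was the most separated group. All 15 of its genes were lower in tau-/- PTZ by over 4-fold, against 22.3% of all genes chosen as higher. The median log2 ratio was -4.17, with a range from -6.30 in Slc4a5 to -2.50 in Lbp. With a pseudocount of 1 FPKM added to both libraries the median became -2.16 and 8 of the 15 genes were lower by over 4-fold, and with 0.1 FPKM the median was -3.30 and all 15 were. For each of the 15, tau-/- PTZ was the lowest of the 4 libraries, as it was for 46 of the 175 genes chosen as higher. In bulk RNA, fewer cells of a type and less RNA per cell cannot be told apart. The summed level of the list was 2639 FPKM in tau+/+ and 41.6 FPKM in tau-/- after PTZ, against 1587 and 1168 FPKM after vehicle. Ttr made up most of this sum, and the other 14 genes summed to 147 and 8.51 FPKM after PTZ and 83.2 and 60.3 FPKM after vehicle. The low sum stood in 1 library of the 4, and the part of the amount of plexus tissue in each brain sample was not tested.

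Ttr (chromosome 18, 20665280 to 20674321, GENCODE M21 on GRCm38 here and below) encodes the transthyretin that carries thyroid hormone in cerebrospinal fluid. It was by far the most abundant gene of the table in every library except tau-/- PTZ, where Plk2, at 76.3 FPKM, stood higher. Ttr had 2492 FPKM in tau+/+ and 33.1 FPKM in tau-/- after PTZ, against 1504 and 1107 FPKM after vehicle. The gap of 75.4-fold came from a tau-/- PTZ library far below the other 3, which lay within 3-fold of each other. Folr1 (chromosome 7, 101858331 to 101870788), a folate receptor, had 21.5 FPKM in tau+/+ PTZ and 0.276 FPKM in tau-/- PTZ, with 13.0 and 8.45 FPKM in tau+/+ and tau-/- vehicle. Slc4a5, a sodium bicarbonate cotransporter, had 3.66 and 0.0466 FPKM after PTZ and 2.33 and 2.47 FPKM after vehicle. Its log2 ratio of -6.30 became -2.16 with a pseudocount of 1 FPKM, while that of Ttr stayed at -6.19. The epithelial potassium channel Kcnj13 was at 25.6 and 0.665 FPKM after PTZ and the water channel Aqp1 at 5.03 and 0.164 FPKM. After these came 1500015O10Rik, which encodes a secreted peptide precursor, at a log2 ratio of -4.86, the coagulation factor F5 at -4.60 and the retinoid transporter Abca4 at -4.17. Wfikkn2, a secreted inhibitor of growth factors of the TGF-beta family, and Wdr86 were at -3.95 and -3.79. With a pseudocount of 1 FPKM Abca4, Wfikkn2 and Wdr86 were at -1.41, -1.18 and -1.62, within 4-fold. Sostdc1, a secreted BMP antagonist, was at -3.38 and the tight junction protein Cldn1 at -3.25. The osmosensitive channel Trpv4, the retinol dehydrogenase Rdh5 and the lipopolysaccharide-binding protein Lbp were at -2.54, -2.53 and -2.50. In tau-/- PTZ 10 of these 15 genes were under 1 FPKM. In the vehicle libraries the median log2 ratio of the list was -0.44, with 5 genes lower and 1 higher in tau-/- by over 1.5-fold. Of the 175 genes chosen as higher, 15 were lower and 32 higher in tau-/- vehicle by over 1.5-fold, with a median of 0.23.

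Genes of other non-neuronal cells next to the plexus were less separated. The meninges and perivascular fibroblast list was lower in tau-/- PTZ by over 1.5-fold in 4 of 5 genes, near the 79.4% of all genes chosen as higher. Aldh1a2, which makes retinoic acid, was at a log2 ratio of -2.05, the collagen-processing Pcolce at -1.87, the membrane protein Mxra8 at -0.97, the proteoglycan Lum at -0.83 and the microfibril protein Mfap2 at -0.35. Of the motile cilia genes, Tekt1, a tubulin-associated protein of ciliary axonemes, had 4.02 and 1.58 FPKM after PTZ, and Morn5 ended within 1.5-fold at 1.51 and 1.24 FPKM. The summed level of the 5 meninges genes was 26.2 FPKM in tau+/+ and 11.0 FPKM in tau-/- after PTZ, against 15.9 and 16.7 FPKM after vehicle, and none of the 5 was under 1 FPKM in any library. The part of these cell types in the values of other genes was not tested.

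**Figure D4:**
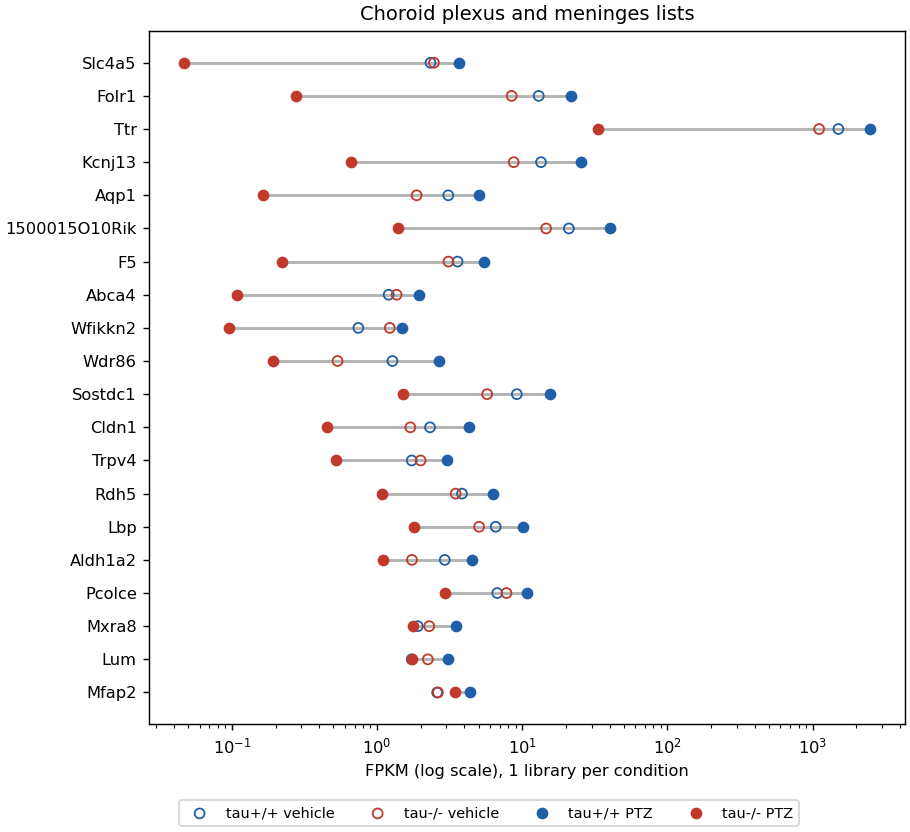
FPKM on a log scale (horizontal axis) of the 15 choroid plexus genes and 5 meninges and perivascular fibroblast genes (rows, ordered by log2 ratio after PTZ), 1 library per condition. Filled points are PTZ libraries joined by a grey line, open points vehicle libraries, blue tau+/+ and red tau-/-. For each choroid plexus gene the filled red point, tau-/- PTZ, is the lowest of the 4, as for Ttr at 33.1 FPKM against 1107 to 2492 FPKM.

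A few genes outside the lists were also far apart. Kcnj2 (chromosome 11, 111066164 to 111076821), an inward rectifier potassium channel, had 10.6 FPKM in tau+/+ and 0.882 FPKM in tau-/- after PTZ, against 2.90 and 1.38 FPKM after vehicle. With a gap of 12-fold after PTZ it completes the 12 lowest ratios, of which the first 10 are choroid plexus genes and the remaining one is Npas4. With a pseudocount of 1 FPKM the log2 ratio of Kcnj2 went from -3.58 to -2.62. Defb11 (chromosome 8, 21905376 to 21906412), a beta-defensin, is listed at 0 in tau-/- PTZ and at 20.4 FPKM in tau+/+ PTZ, with 11.7 and 5.86 FPKM in tau+/+ and tau-/- after vehicle, and no ratio was formed for it. Among the 85 genes outside the lists that were chosen as higher after PTZ, 63 were lower in tau-/- PTZ by over 1.5-fold, near the 79.4% of all genes chosen as higher, with a median log2 ratio of -0.86.

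When the genes were binned by their level, the medians lay between -0.85 and -1.13. Among the genes chosen as higher, without the choroid plexus and meninges lists, the median log2 ratio was -0.85 for the 16 genes under 2 FPKM in tau+/+ PTZ and -1.13 for the 36 genes at 30 FPKM or more. In between it was -0.96, -0.85 and -0.87 in bins of 31, 24 and 48 genes. The median gene span was 10.7 kb both for the genes lower by over 1.5-fold and for those within 1.5-fold, and 8.81 kb for those higher, while the early genes were shorter at 6.51 kb.

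Several genes ended at nearly the same level in both genotypes. Of the 12 ratios closest to 1, those of Fdxr, Sfswap, Cirbp and P2ry6 were below 1 and the other 8 were above. Fdxr (chromosome 11, 115268024 to 115277050), a mitochondrial reductase that passes electrons to ferredoxin, had 4.46 FPKM in tau+/+ PTZ and 4.22 FPKM in tau-/- PTZ, with 2.91 and 3.10 FPKM in tau+/+ and tau-/- vehicle. Both PTZ libraries lay above both vehicle libraries. Rfx3, a transcription factor of ciliogenesis, had 5.48 and 5.79 FPKM after PTZ, both below the 8.50 and 8.07 FPKM after vehicle. Sfswap, a regulator of splicing, had 16 and 15.1 FPKM after PTZ against 10.2 and 12 FPKM after vehicle, and Cirbp, a cold-inducible RNA-binding protein, had 26.1 and 23.8 FPKM against 16.9 and 19.7 FPKM. These genes were picked for their small gap after PTZ from a list chosen for a difference between PTZ and vehicle in tau+/+, so this order of the libraries follows in part from the choice.

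Sfswap and Cirbp belong to a list of 8 splicing and RNA-binding genes. Its median log2 ratio was -0.50, with 4 of the 8 lower in tau-/- PTZ by over 1.5-fold, against 79.4% of all genes chosen as higher. The furthest apart were the cyclin Ccnl1 at -0.75 and the kinase Clk1 at -0.71, both regulators of splicing, then Cwc25 at -0.66 and the cold-inducible Rbm3 at -0.59. Clk4 and Hnrpdl were at -0.42 and -0.23. The chaperones of the DnaJ family, Dnajb1 and Dnajb5, had log2 ratios of -0.71 and -0.56. The remaining genes nearest to equal levels were low, at under 4 FPKM in both PTZ libraries. They were Cdkn2aip, a regulator of p53, at 0.10, the nuclear receptor Rorb of cortical layer neurons at 0.14 and the nucleotide receptor P2ry6 of microglia at -0.14. Plagl2, a zinc finger factor, and the Wnt ligand Wnt10a were both at 0.15, and the small GTPase Rnd1, the zinc finger gene Zfp882 and 1700019N12Rik were at 0.18. The other Wnt ligand of the list, Wnt9a, was at 0.28.

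The genes higher in tau-/- PTZ lay close together and at low levels. No ratio reached 2-fold, and the highest log2 ratio was 0.84. Zkscan14 (chromosome 5, 145194946 to 145201868), a zinc finger gene, had 1.58 FPKM in tau+/+ PTZ and 2.81 FPKM in tau-/- PTZ, with 2.89 and 3.96 FPKM in tau+/+ and tau-/- vehicle. Isoc2b, which has an isochorismatase domain, had 1.23 and 2.16 FPKM after PTZ and 3.51 and 2.81 FPKM after vehicle. In both cases tau-/- PTZ lay between tau+/+ PTZ and the vehicle libraries. Fam175a, a scaffold of a BRCA1 complex, was at 0.81, Spin2 of the spindlin family at 0.80 and Gm11549 at 0.75. Wdr5b, a WD-repeat gene, and Zfp39 were both at 0.71, the palmitoyltransferase Zdhhc22 at 0.69, Zfp354b at 0.67, 4933403G14Rik at 0.66 and Zfp11 at 0.65.

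The zinc finger list, mostly DNA-binding repressors of the KRAB and BTB families, held 22 genes. Each was higher in tau-/- PTZ, as were all 55 genes chosen as lower, and the choice bears on this direction. Past 1.5-fold were 6 of the 22, near the 25.5% of all genes chosen as lower, with a median log2 ratio of 0.51 and a range from 0.18 to 0.84. The median level of the list was 1.19 FPKM in tau+/+ PTZ and 1.62 FPKM in tau-/- PTZ, and after vehicle 2.17 and 1.95 FPKM, so the differences rest on low values. For all 55 genes chosen as lower after PTZ, tau-/- PTZ lay between tau+/+ PTZ and tau+/+ vehicle, and for 38 of them it was below both vehicle libraries. Many zinc finger genes have close copies in the same gene clusters, which makes single values of this list uncertain. The methods speak of read pairs aligned unambiguously, and how this acted on such copies was not tested.

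**Figure D5:**
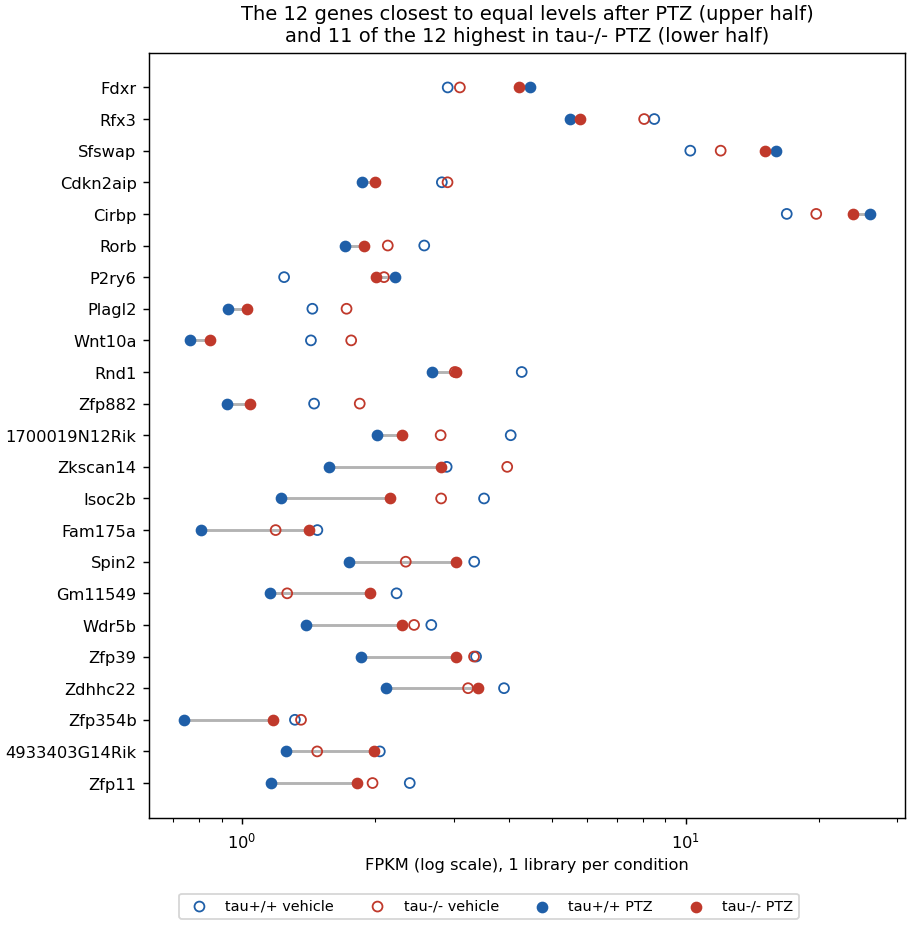
FPKM on a log scale (horizontal axis) of the 12 genes closest to equal levels after PTZ (upper rows) and 11 of the 12 genes highest in tau-/- PTZ (lower rows), 1 library per condition. Filled points are PTZ libraries joined by a grey line, open points vehicle libraries, blue tau+/+ and red tau-/-. The filled points of Fdxr, at 4.46 and 4.22 FPKM, nearly overlap, and those of Zkscan14, at 1.58 and 2.81 FPKM, are the furthest apart in this plot.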

How the data were processed

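Brain RNA was sequenced as paired ends in 4 libraries, 1 for each genotype and treatment. According to the submitters' processing notes, CASAVA 1.7, TopHat2 2.03, Bowtie2 2.0.0.6 and Cuffdiff 2.01 were used with the mouse build mm10. The annotation counted on is not given in the sources used here. The deposited values are FPKM, which the authors computed with Cuffdiff for the 230 genes of their lack-of-response list. The columns of fold changes and p-values, for each genotype after PTZ against tau+/+ vehicle, were not used. The methods give a minimum of aligned read pairs but not the depth of each library, so no counting error was computed, and low values are the least precise.

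log2 ratios of tau-/- over tau+/+ were taken without a pseudocount, and genes were counted past 1.5-fold, the fold of the study's methods. Defb11, listed at 0, was counted as lower and ranked below all ratios in medians. Samples were grouped by the labels for genotype and treatment. Named genes are the 12 lowest, 12 highest and 12 closest to equal, members of 18 gene lists and Defb11. 1 gene of the highest is not reported here. The members, lists and rules were chosen with earlier results of these data known. GENCODE M21 held 225 of the 230 genes, and RefSeq promoters on GRCm38.p6 were matched for 175. The CRE half-site and the printed promoters of Btg2, Dusp1 and Slc4a5 were added after the values had been seen. Ttr and Folr1 are named without a sequence.

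The alternatives were a pseudocount of 0.1 or 1 FPKM, a minimum of 1 or 5 FPKM for the mean of the PTZ libraries, a 2-fold threshold and leaving out the choroid plexus and meninges lists. All 8 checks of the code on simulated data passed. The analysis ran in Python 3.11.15, numpy 2.4.6, pandas 2.3.3 and matplotlib 3.10.9.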

Additional observations from a re-analysis of the deposited data

Results flagged for a closer look

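Of 130 named genes and members of lists, 17 lay past 1.5-fold in opposite directions after vehicle and after PTZ, and 16 of them were higher in tau-/- after vehicle but lower in tau-/- after PTZ. Over all 230 genes the count was 27, of which 26 were lower in tau-/- after PTZ. The choice of genes bears on the direction after PTZ: of the 26, all were chosen as higher after PTZ in tau+/+, and the other gene was chosen as lower. By the methods the tau-/- vehicle level also entered the choice, while the deposited fold changes were taken against tau+/+ vehicle. Neither the split nor the counts can therefore be taken as independent of the choice. In each case the difference between the PTZ ratio and the vehicle ratio was not tested. Among the factors that bind DNA, Egr2 was at a log2 ratio of -2.90 after PTZ and 0.91 after vehicle, and Egr4 was at -2.59 and 1.24. Fosb was at -3.50 after PTZ and 0.62 after vehicle, Cebpb at -1.23 and 1.08, and Csrnp1 at -0.87 and 0.68. For the receptors Nr4a1 and Nr4a3 the values were -2.05 and -0.85 after PTZ, and 1.05 and 0.72 after vehicle. Among genes acting on signalling and synapses, Arc was at -2.32 after PTZ and 0.78 after vehicle, Gem at -1.09 and 1.14, Errfi1 at -1.60 and 0.85, and Dusp5 at -0.81 and 1.52. The glucocorticoid-responsive genes Sgk1 and Per1 were at -0.68 and -0.75 after PTZ, and 1.28 and 0.78 after vehicle. Gadd45b was at -1.20 after PTZ and 0.63 after vehicle, and Thbs1, a matrix protein that inhibits vessel growth, at -1.28 and 0.64. Wfikkn2 was the choroid plexus gene of this set, at -3.95 after PTZ and 0.72 after vehicle, with under 2 FPKM in every library. Gm11549 went the other way, at 0.75 after PTZ and -0.82 after vehicle.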

How the results depend on the processing

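With 1 library per condition there was no error between samples and no replicate to leave out. No paired analysis was possible because each condition has 1 library and no test was run. Lower in tau-/- PTZ by over 1.5-fold were 139 genes. This count was 86 among genes with a mean of at least 5 FPKM, since fewer genes entered, and 85 at a threshold of 2-fold. The 14 genes higher in tau-/- PTZ by over 1.5-fold became 0 with a pseudocount of 1 FPKM. They were also 0 at a mean of at least 5 FPKM and 0 at 2-fold. The median log2 ratio of the genes chosen as higher after PTZ was -0.97, and -0.76 with a pseudocount of 1 FPKM. For the genes chosen as lower it was 0.40, 0.26 with that pseudocount and 0.080 at a mean of at least 5 FPKM, which leaves 1 gene, Rfx3. Of the 22 recomputed counts and medians over all genes, 14 stayed within 1.5 times or 0.1 log2 of their value and 8 moved by more. The choroid plexus median of -4.17 was -3.30 and -2.16 with pseudocounts of 0.1 and 1 FPKM and -4.39 and -5.06 at means of at least 1 and 5 FPKM, and with 1 FPKM added Slc4a5, at -2.16, was less far apart than Npas4, at -3.57. Of 68 recomputed medians of lists, 51 stayed and 17 moved. Of 72 recomputed ratios of single genes, 40 stayed and 32 moved. Under these settings no direction could change. A pseudocount keeps the sign of a ratio, and the ratios within each of these sets and lists shared a sign.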

Other observations

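Outside the gene lists, 11 genes were lower in tau-/- PTZ by over 4-fold, and apart from Kcnj2 and Defb11 they are named here because their values were seen. Arl4d, a small GTPase of the ARF family, had 47.2 FPKM in tau+/+ and 6.85 FPKM in tau-/- after PTZ, against 5.12 and 10.5 FPKM after vehicle. Gm13889 had 60.7 and 12.4 FPKM after PTZ and 11.3 and 11.2 FPKM after vehicle, and Ier2, an immediate early gene, had 19.8 and 4.71 FPKM after PTZ and 3.29 and 3.51 FPKM after vehicle. For these 3 genes tau+/+ PTZ was the high library and the other 3 lay lower. C2cd4b and Gm12191 were at log2 ratios of -2.08 and -3.04 after PTZ. The others were at low levels, with under 5 FPKM in every library. Tgtp1, an interferon-induced GTPase with a near-identical neighbouring copy that makes its value uncertain, was at -3.25, the secreted semaphorin Sema3b at -2.69, the centromeric histone Cenpa at -2.57 and the protease inhibitor A2m at -2.07.

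Several further genes outside the lists, also named after their values were seen, lay closer to the middle of the distribution. The neuropeptide galanin, Gal, was at a log2 ratio of -1.74 after PTZ with 2.0 and 0.61 FPKM in tau+/+ and tau-/-. The TGF-beta inhibitor Smad7 was at -1.31, the kinase Sik1 at -1.07 and the insulin receptor substrate Irs2 at -0.54. The histone gene H3f3b had 88.5 and 55.6 FPKM and the survival factor Mcl1 had 26.8 and 18.2 FPKM after PTZ in tau+/+ and tau-/-.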
